A study of Homo sapiens with 12 samples.

Results

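The genes described here are 8 metalloproteinases of the ADAM and ADAMTS families: ADAM8, ADAM9, ADAM10, ADAM12, ADAM15, ADAM17, ADAM19 and ADAMTS1. They were taken by gene symbol, with earlier results of these data known, from 16633 genes listed in at least 1 of the 2 tables. All 8 were listed in the PMA experiment and 7 in the ConA experiment, where ADAMTS1 was not listed. Transcript levels were measured by sequencing of polyA RNA from HT1080 cells, a human fibrosarcoma line of wt genotype, in 12 libraries. In the first experiment, 3 libraries came from cells exposed for 24 h to PMA at 40 nM, a phorbol ester that mimics diacylglycerol and activates protein kinase C, and 3 from control cells. In the second, 3 came from cells exposed for 24 h to ConA at 40 µg/mL, the mannose-binding lectin of jack beans known as concanavalin A, and 3 from a separate set of controls. All cells, controls included, were kept in low-serum medium depleted of biotin during treatment. The labels do not state whether libraries of a group came from separate cultures, so the p-values measure only the spread between these samples, which may be technical.

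ADAM proteins are membrane-anchored proteases with a disintegrin domain, and many of them cut the ectodomains of growth factor precursors, cytokines, adhesion molecules and receptors from the cell surface, a step called shedding. They are made as inactive precursors, many of which proprotein convertases such as furin activate in the secretory pathway. Tissue inhibitors of metalloproteinases (TIMPs) restrain some of the mature enzymes. ADAMTS proteins are secreted relatives with thrombospondin repeats that act on proteoglycans and other proteins of the extracellular matrix. Fibrosarcoma cells treated with PMA or ConA are a classical system for the study of cell-surface proteolysis.

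ADAM12 and ADAM15 had the largest differences between the treatments among the 7 genes that could be compared, and the 250 bases before their transcription start sites are therefore shown. The sequences are RefSeq, build GRCh38.p14, written 5′ to 3′ along the strand of the gene. ADAM12 is read from the minus strand at chr10:126388478-126388727 and ADAM15 from the plus strand at chr1:155051066-155051315. Capitals mark GC boxes, the letters GGGCGG or their reverse complement CCGCCC, to which Sp family factors are known to bind.
ADAM12: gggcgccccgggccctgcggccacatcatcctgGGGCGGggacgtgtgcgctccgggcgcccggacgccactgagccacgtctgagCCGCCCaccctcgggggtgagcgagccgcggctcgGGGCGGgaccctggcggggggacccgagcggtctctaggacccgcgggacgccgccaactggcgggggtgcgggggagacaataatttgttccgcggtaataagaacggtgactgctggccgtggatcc
ADAM15: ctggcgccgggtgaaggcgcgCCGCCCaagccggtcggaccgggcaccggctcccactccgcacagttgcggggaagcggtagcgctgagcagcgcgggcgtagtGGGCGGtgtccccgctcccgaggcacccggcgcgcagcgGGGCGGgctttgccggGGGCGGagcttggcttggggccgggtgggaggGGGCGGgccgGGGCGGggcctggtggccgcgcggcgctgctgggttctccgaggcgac
The ADAM12 window held 3 GC boxes at 73.6% G and C and the ADAM15 window held 6 at 79.6%, against a median of 58% over 35116 promoter windows of the same length. A window was at hand for 6 of the 8 genes, and 5 of these 6 (all but ADAM19) held at least 1 GC box, as did 42.6% of all windows. The letters TGANTCA, the form of the AP-1 site, were in 0 of the 6 windows and in 6.57% of all windows on either strand. These matches describe the letters only.

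The deposited values are normalized counts per gene, which the authors divided by a factor for each library but not by gene length. An estimated 33639306 to 45593637 reads lay behind a library, and the lowest correlation between replicate libraries of a group was 0.992. Cell types were checked on marker lists, which cannot identify a cell line. All 8 mesenchymal markers tested were listed in every library, VIM among them at 77843 to 285120 normalized counts, and 0 of 5 erythroid markers were listed. Transcripts typical of leukocytes were listed too, and unevenly: 17 of 21 leukocyte markers in the PMA experiment and 7 of 21 in the ConA experiment. Summed over the list, these markers stood at 2149 to 2342 normalized counts in the PMA controls, 5524 to 6138 with PMA, 901 to 1003 in the ConA controls and 5086 to 5846 with ConA. Most of the rise was IL7R, which went from a mean of 329 to 3021 with PMA and from 441 to 5114 with ConA. IL7R and CSF1R were then left out, after their values were seen. Of the other 19 markers, 15 were listed in the PMA experiment and 5 in the ConA experiment, so the sums cover different genes. These sums were 1518 to 1708 in PMA controls, 2113 to 2832 with PMA, 126 to 174 in ConA controls and 160 to 229 with ConA. Of the defining markers, PTPRC (CD45) had 176 to 187 in the PMA controls and 168 to 328 with PMA, which overlapped. CD3E had 110 to 125 in the PMA controls and 176 to 233 with PMA, and CD8A 348 to 450 and 544 to 597. PTPRC, CD3E and CD8A were not listed in the ConA experiment. CD3D and LCK were listed there, CD3D at 21.9 to 31.0 in the controls and 21.6 to 26.1 with ConA. Other markers of the list went different ways. In the ConA experiment ITGAM rose from 1.04 to 7.01 in the controls to 20.7 to 35.5. CSF1R fell there from 340 to 382 in the controls to 256 to 262. In the PMA experiment LYZ fell from 5.53 to 15.3 in the controls to 1.16 to 4.75. What part the leukocyte transcripts had in the values of the 8 genes was not tested. In bulk RNA, fewer cells with a transcript and less transcript per cell cannot be told apart.

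The genes lie on chromosomes 10 (ADAM8 and ADAM12), 8 (ADAM9), 15 (ADAM10), 1 (ADAM15), 2 (ADAM17), 5 (ADAM19) and 21 (ADAMTS1) in RefSeq. Their levels were compared with each other only per kb of merged exon of the GENCODE annotation of GRCh38. In the PMA controls ADAM9 was the most abundant at 2443 ± 52.0 normalized counts per kb (SD, n = 3). ADAM19 followed at 1366 ± 76.2, ADAM17 at 958 ± 24.6, ADAM15 at 888 ± 4.78 and ADAM10 at 418 ± 14.1 per kb. ADAM8 stood far below these at 50.8 ± 6.27, and ADAM12 at 7.26 ± 1.06 and ADAMTS1 at 7.22 ± 0.881 per kb were the lowest. The libraries of each gene lay apart from those of its neighbour in this order, except those of ADAM12 and ADAMTS1, which overlapped. The ConA controls ran in nearly the same order, with ADAM9 at 3197 ± 185, ADAM19 at 2538 ± 59.9, ADAM15 at 1275 ± 82.8, ADAM17 at 1080 ± 54.5, ADAM10 at 520 ± 28.4, ADAM8 at 24.6 ± 1.52 and ADAM12 at 3.42 ± 0.431 per kb, and no neighbours overlapped. ADAM15 thus stood below ADAM17 in the PMA controls and above it in the ConA controls, though per kb of coding sequence it was below ADAM17 in both. ADAM9 made up 39.8% ± 0.491 of the summed level per kb of the 8 genes in PMA controls, and ADAM12 0.118% ± 0.0163. The place of ADAM10 depends on the length used, since its merged exons hold 13123 bases of which 2425 are coding, and per kb of coding sequence it ranked 3 in place of 5 in all 4 groups.

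**Figure D1:**
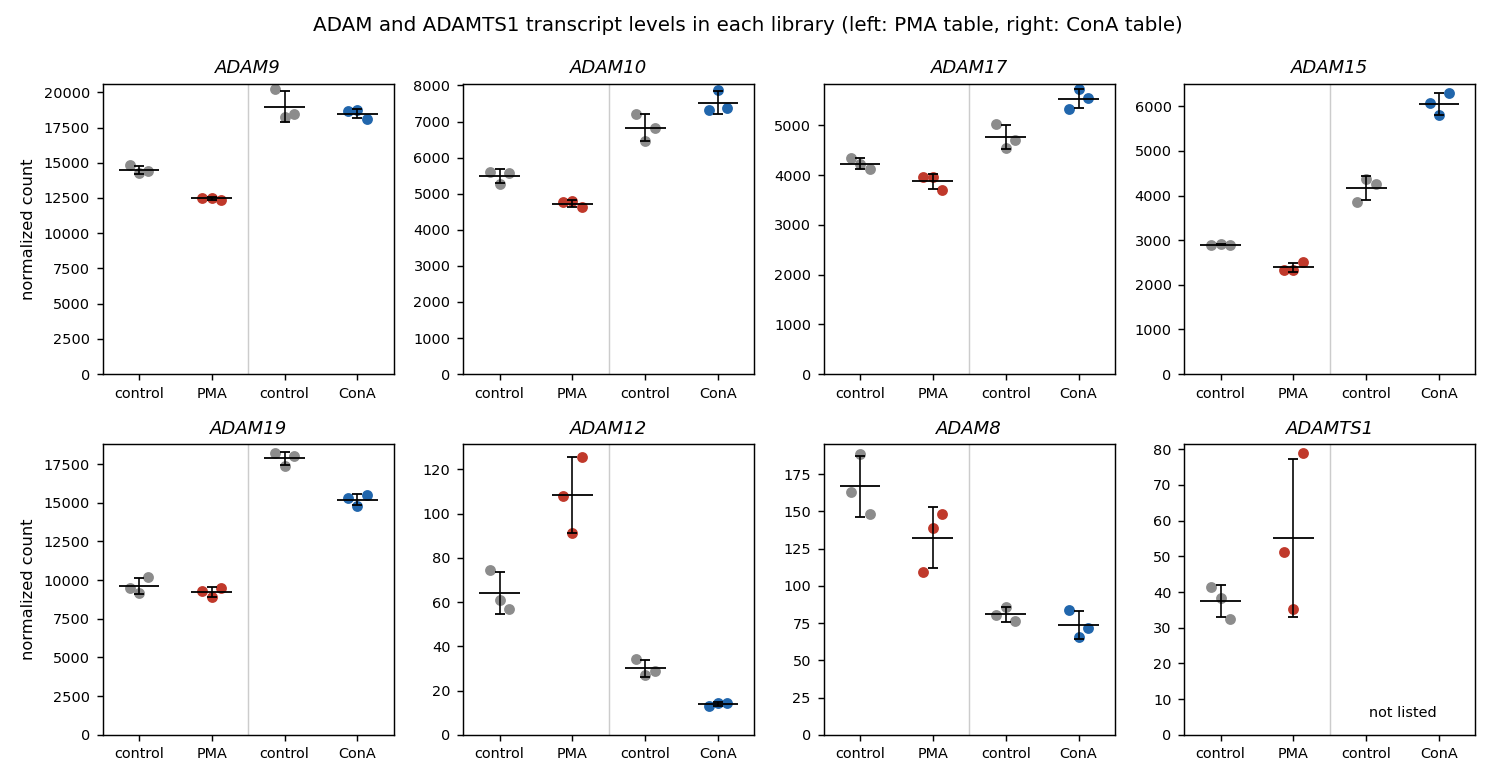
Normalized counts (vertical axis, starting at 0, its own scale in each panel) of the 8 genes in each of 12 libraries. Points are libraries, horizontal lines are group means and error bars are the SD of 3 libraries; the PMA experiment is left and the ConA experiment right of the grey line. ADAM15 rose from 4165 to 6059 with ConA and ADAM12 fell from 30.2 to 14.01, while ADAM12 rose from 64.1 to 108 with PMA.

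With PMA, 5 of 8 genes passed the test (limma on log2 of normalized count + 1, Benjamini-Hochberg adjusted p of at most 0.05), ADAM12 higher and ADAM9, ADAM10, ADAM15 and ADAM17 lower. Across all 15153 genes tested 63.3% passed, 32.8% higher and 30.5% lower, so the share among the 8 genes was near the background. The groups did not overlap for the same number, 5 of 8, against 67.9% of all genes. Under a stricter rule, an adjusted p of at most 0.0001 with a change of at least 2-fold, 0 of 8 were called against 8.65% of all genes (4.03% higher and 4.61% lower). An unadjusted p under 0.05 was found for 6 of 8, against 66.7% of all genes. The median absolute log2 fold change was 0.25 over the 8 genes and 0.30 over all genes tested. After quantile normalization 7 of 8 passed, 2 higher and 5 lower, with ADAMTS1 and ADAM19 added.

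With ConA, 5 of 7 genes passed, ADAM10, ADAM15 and ADAM17 higher and ADAM12 and ADAM19 lower, against 65.3% of 15139 genes tested (32.8% higher and 32.5% lower). Here too 5 of 7 had groups without overlap, against 69.3% of all genes, and 0 of 7 were called under the stricter rule, against 8.71% (5.83% higher and 2.88% lower). An unadjusted p under 0.05 was found for 5 of 7, against 68.2% of all genes. The median absolute log2 fold change was 0.22, and 0.34 over all genes tested. When each library was centred on its median instead, 3 passed with ConA, 1 higher and 2 lower.

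ADAM10 and ADAM17 are the best studied sheddases of the group. ADAM10 is known for the ligand-dependent cut of Notch and for shedding of cadherins, and ADAM17, also called TACE, for release of TNF and of several EGF receptor ligands. ADAM10 had 5609.75, 5275 and 5577 normalized counts in PMA controls 1, 2 and 3 and 4767, 4796 and 4621 with PMA. Every treated library was below every control, and the level fell by 0.21 on the log2 scale (SE 0.039, limma adjusted p = 5.96e-04), to 0.862 of the control mean. After quantile normalization the change was -0.36. With ConA the ADAM10 values went the other way, from 7210.5, 6465 and 6809 in controls 4, 5 and 6 to 7316, 7888 and 7370.4, again without overlap. This rise of 0.14 (log2; SE 0.056, adjusted p = 0.0397) was the smallest rise that passed. It no longer passed without control 5, control 6, ConA 2 or ConA 3 (adjusted p = 0.140, 0.0929, 0.162 and 0.0664), under median centring (0.433) or without the variance trend (0.0989), and stayed higher with ConA in each.

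ADAM17 had 4335, 4230.1 and 4118 normalized counts in the PMA controls and 3964, 3963 and 3705 with PMA. The treated libraries were all lower, by 0.13 on the log2 scale (SE 0.042, adjusted p = 0.0220), a call lost without control 1 (0.0896), without PMA 3 (0.102) or without the variance trend (0.0629). After quantile normalization it was -0.25 (adjusted p = 4.53e-04). In the ConA experiment ADAM17 stood at 5028, 4555 and 4713 in the controls and at 5331, 5728 and 5556 with ConA. It rose by 0.22 (log2; SE 0.055, adjusted p = 0.00310), a 1.16-fold increase of the mean with no overlap, which just missed the threshold under median centring (0.0512). Of the 4413 merged exon bases of ADAM17, 1257 (28.5%) overlap exons of IAH1 on the opposite strand, and the sources used here do not say whether reads were counted by strand.

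ADAM9, ADAM15 and ADAM19 are further membrane-anchored proteases with the catalytic zinc-binding site. ADAM9 has been linked to shedding and to cell adhesion in many tissues. It had 14837, 14247 and 14384 normalized counts in the PMA controls and 12519.9, 12520.4 and 12373 with PMA, a narrow band below the controls. The fall was 0.22 on the log2 scale (SE 0.035, adjusted p = 2.39e-04), to 0.861 of the control mean. After quantile normalization the change was -0.41. With ConA ADAM9 was at 18651, 18716.5 and 18112 against 20224, 18235 and 18434 in the controls. These groups overlapped, the fitted difference was -0.03 (95% interval -0.15 to 0.08, adjusted p = 0.592), and its sign turned without control 4 (0.012).

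ADAM15, known for an integrin-binding RGD motif in its human disintegrin domain, gave the most significant change of the group. ConA libraries 1, 2 and 3 held 6069.9, 5808 and 6300.2 normalized counts and controls 4, 5 and 6 held 3859, 4370.1 and 4267. Every treated library was higher, by 45.5% on the means and by 0.54 on the log2 scale (SE 0.059, 95% interval 0.42 to 0.67, adjusted p = 1.93e-06). Among all genes tested with ConA, 32.1% had a larger absolute change. With PMA the same transcript fell, from 2894, 2918 and 2889 to 2341.5, 2333 and 2512, again without overlap. That fall was 0.28 on the log2 scale (SE 0.043, adjusted p = 1.60e-04).

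ADAM19 (meltrin beta), implicated in the processing of neuregulins, was second in level per kb in all 4 groups. Its 9519, 9152 and 10209.8 normalized counts in the PMA controls and 9280.2, 8882 and 9499 with PMA overlapped, with a fitted difference of -0.06 (log2; 95% interval -0.16 to 0.04, adjusted p = 0.271). It passed after quantile normalization (-0.20, adjusted p = 0.00167). ConA libraries held 15303, 14789 and 15519.9 against 18215, 17407 and 18020.4 in the controls. All ConA values were lower, and the level fell by 0.23 on the log2 scale (SE 0.050, adjusted p = 8.66e-04), to 0.850 of the control mean.

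ADAM12 (meltrin alpha), which is made in a membrane-anchored and a shorter secreted form and is often raised in tumour stroma, moved furthest although it was scarce. The files do not separate its forms. With PMA it had 108, 91.3 and 126 normalized counts, above the 74.7, 60.8 and 56.9 of the controls. The rise was 1.69-fold on the means and 0.74 on the log2 scale (SE 0.16, 95% interval 0.38 to 1.11, adjusted p = 0.00209). With ConA it had 13.0, 14.6 and 14.4, below the 34.4, 27.0 and 29.1 of those controls. The treated mean was 0.465 of the control mean, a fall of 1.05 on the log2 scale (SE 0.27, 95% interval -1.62 to -0.48, adjusted p = 0.00319). That change exceeded 2-fold but missed the adjusted p of the stricter rule, under every alternative too (adjusted p from 1.23e-04 to 0.0182). The 2 sets of controls also differed, with means of 64.1 ± 9.36 and 30.2 ± 3.81 (SD, n = 3), a comparison that was not tested since the tables were scaled apart.

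ADAM8, which is expressed mainly by leukocytes and can be induced in tumour cells, gave 163, 189 and 148 normalized counts in the PMA controls and 109, 139 and 148 with PMA. The groups overlapped at their edges, and the difference of -0.34 (log2; SE 0.14, 95% interval -0.65 to -0.03) had an adjusted p of 0.0540. It passed without control 3 (0.0249), without PMA 3 (0.0319) or under median centring (0.0499). It was smaller without PMA 1 (-0.21, adjusted p = 0.200), without control 2 (-0.24, adjusted p = 0.198) and after quantile normalization (-0.16, adjusted p = 0.355). ConA left 84.1, 65.8 and 71.9 against 80.2, 86.0 and 76.1 in the controls, which overlapped (-0.13, adjusted p = 0.478). The summed leukocyte markers moved against ADAM8 in the PMA experiment. Without IL7R and CSF1R, the sum of the 15 listed of 19 markers was higher in all treated libraries. It was 2113, 2511 and 2832 with PMA against 1708, 1518 and 1520.2 in the controls. Within the treated libraries PMA 1 was lowest and PMA 3 highest in both the marker sum and ADAM8. Within the controls the order was not shared: control 1 was highest in the marker sum, while control 2 was lowest in it and highest in ADAM8. The part of these transcripts in the ADAM8 values was not tested.

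**Figure D2:**
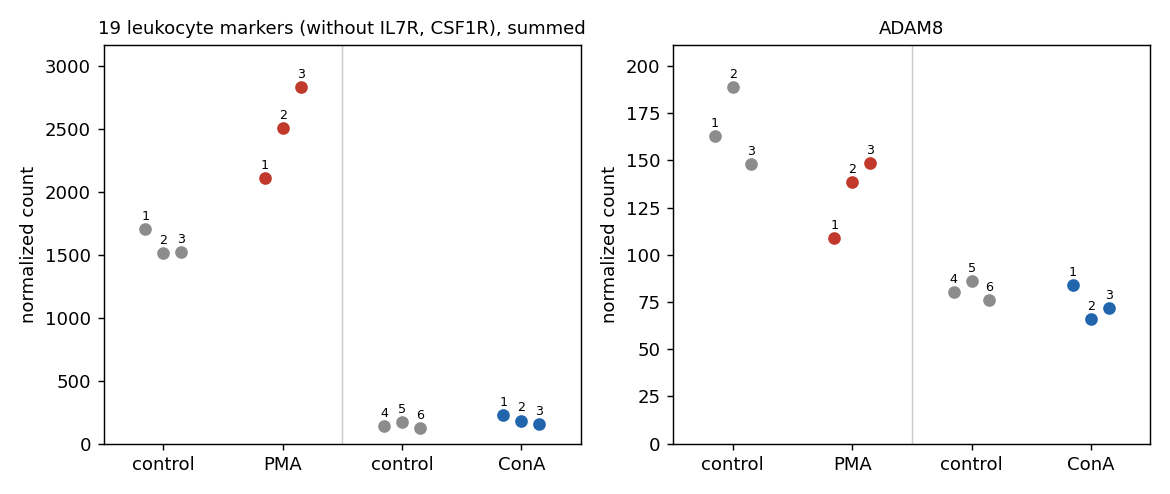
Summed normalized counts of 19 leukocyte markers (left) and normalized counts of ADAM8 (right), both axes from 0, 1 numbered point per library in each of the 4 groups. Of the 19 markers (without IL7R and CSF1R), 15 were listed and summed in the PMA experiment and 5 in the ConA experiment. The marker sum was 1518 to 2832 in the PMA experiment and 126 to 229 in the ConA experiment, and ADAM8 was 109 to 189 and 65.8 to 86.0.

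ADAMTS1, a secreted protease that cleaves versican and other proteoglycans, had 41.5, 38.5 and 32.5 normalized counts in the PMA controls and 51.1, 35.2 and 79.0 with PMA. PMA 2 lay among the controls and the other two above them. The difference of 0.47 (log2; SE 0.27, 95% interval -0.12 to 1.07, adjusted p = 0.144) did not pass, and it did without PMA 2 (0.75, adjusted p = 0.0226) and after quantile normalization (0.75, adjusted p = 0.0277). Without PMA 3, the highest library, it was 0.18 (adjusted p = 0.536). Every gene that a table listed reached 10 estimated reads in some library of that table. ADAMTS1 was not listed with ConA, so no level is given there.

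The responses to the agents differed for 6 of 7 genes (limma over all 12 libraries, PMA change minus ConA change), 2 with a higher value for PMA and 4 with a lower one. Of 15030 genes tested 61.1% passed, 30.4% higher and 30.7% lower. ADAM12 was the only one called under the stricter rule, against 10.6% of all genes (3.67% higher and 6.89% lower), with a difference of 1.79 on the log2 scale (SE 0.27, 95% interval 1.22 to 2.37, adjusted p = 2.18e-05). That call was lost by a narrow margin without PMA control 2, PMA control 3 or PMA 3 (adjusted p = 1.08e-04, 1.06e-04 and 1.19e-04), while the difference stayed at 1.68 to 1.76. ADAM15 differed in the opposite sense by -0.82 (SE 0.074, adjusted p = 4.18e-08). ADAM10 (-0.36, adjusted p = 2.44e-04) and ADAM17 (-0.34, adjusted p = 3.44e-04) differed in the same sense as ADAM15, each falling with PMA and rising with ConA. Smaller differences were found for ADAM9 (-0.18, adjusted p = 0.0195) and ADAM19 (0.17, adjusted p = 0.0318). The ADAM9 difference did not pass without PMA control 1 (0.0535) or under median centring (0.0919), and it was -0.43 after quantile normalization. The ADAM19 difference did not pass without PMA control 1 or 2, PMA 1 or 3, ConA control 4 or 6, or ConA 2 (adjusted p from 0.0582 to 0.0926), and its sign turned after quantile normalization (-0.0064). For ADAM8 the difference was -0.21 with a 95% interval of -0.64 to 0.23 (adjusted p = 0.402), and its sign turned after quantile normalization (0.080). The agents were used in separate experiments, so agent and experiment cannot be told apart.

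**Figure D3:**
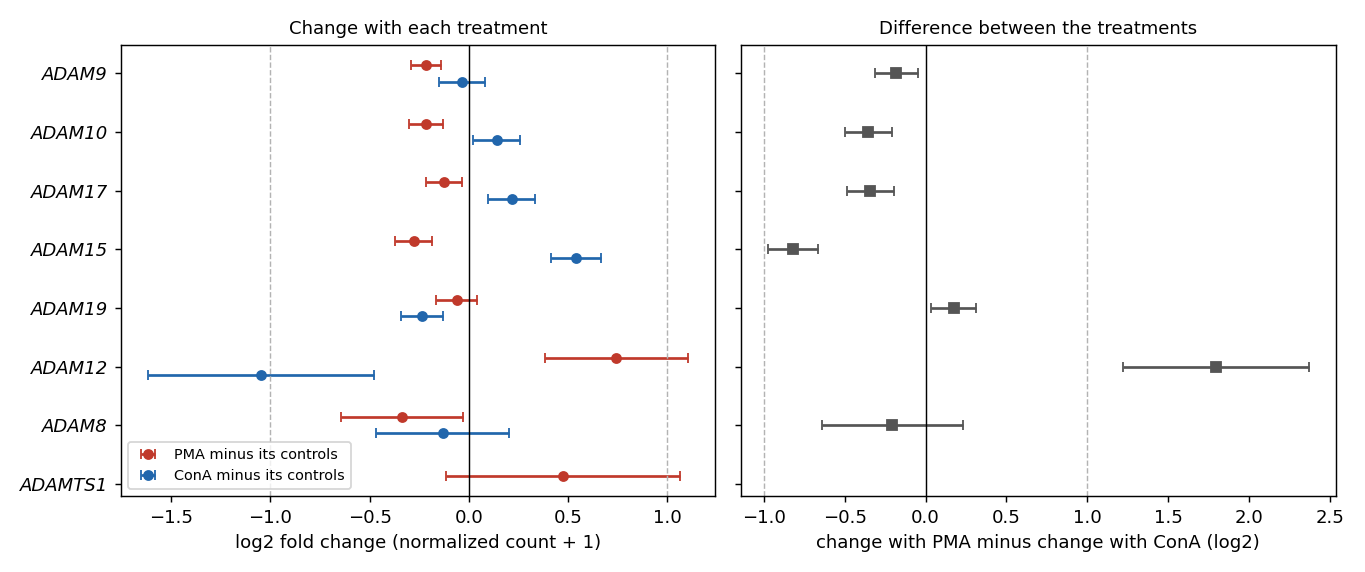
Log2 fold changes of the 8 genes with PMA (red) and ConA (blue) against their own controls (left) and the PMA change minus the ConA change (right), with 95% intervals from limma on 3 libraries per group. Dashed lines mark changes of 2-fold. ADAM12 stands at 0.74 with PMA and -1.05 with ConA, and ADAM15 at -0.28 and 0.54.

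Larger changes were found among other genes of the families. Of 39 further ADAM, ADAMTS and ADAMTS-like genes, 23 could be tested with PMA, and 12 were called under the stricter rule, 6 higher and 6 lower, against 8.65% of all genes. Their median log2 fold change was -0.07, and 0.00 over all genes. ADAMTS18 stood at 141 ± 19.1 normalized counts in controls and 998.5 ± 21.0 with PMA (SD, n = 3), and its log2 fold change was 2.83 (SE 0.097, limma adjusted p = 5.77e-10). ADAMTS9, which cleaves versican and aggrecan, rose from 89.8 ± 10.6 to 428 ± 17.1 (2.25, adjusted p = 7.74e-09). ADAMTSL1, a family member without a protease domain, rose from 11.4 ± 4.39 to 89.7 ± 20.2 (2.90, adjusted p = 4.72e-06). ADAMTS15 fell from 104.5 ± 3.45 to 13.5 ± 6.70 (-2.97, adjusted p = 7.31e-06). The count of 12 came to 5 when gene variances were not fitted with a trend.

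With ConA, 23 of the 39 were tested and 4 called, 3 higher and 1 lower (17.4%, against 8.71% of all genes), with a median of -0.08. ADAMTS9 rose again, from 118 ± 20.6 to 400.6 ± 42.9 (1.76, adjusted p = 3.83e-08). ADAMTS12 rose from 17.3 ± 3.11 to 73.1 ± 20.3 (1.99, adjusted p = 8.85e-06), and ADAM28, known from lymphocytes, from 5.40 ± 3.19 to 33.9 ± 8.06 (2.53, adjusted p = 6.46e-05). ADAMTS14, a procollagen N-proteinase, fell from 594.5 ± 52.5 to 214 ± 52.5 (-1.49, adjusted p = 3.74e-07). ADAMTS12 and ADAMTS14 were also called with PMA in the same directions, with log2 fold changes of 1.71 and -1.28. ADAMTS4, an aggrecanase, passed the test with both agents without being called, from 3.94 ± 1.94 to 16.4 ± 6.63 with PMA (adjusted p = 0.00597) and from 3.04 ± 3.00 to 19.9 ± 6.84 with ConA (adjusted p = 0.00192). ADAMTS5, the other main aggrecanase, had 13.1 ± 8.69 and 14.6 ± 8.15 with PMA (adjusted p = 0.748). The 4 calls came to 2 without ConA 2 or without ConA 3, and to 0 without the variance trend.

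**Figure D4:**
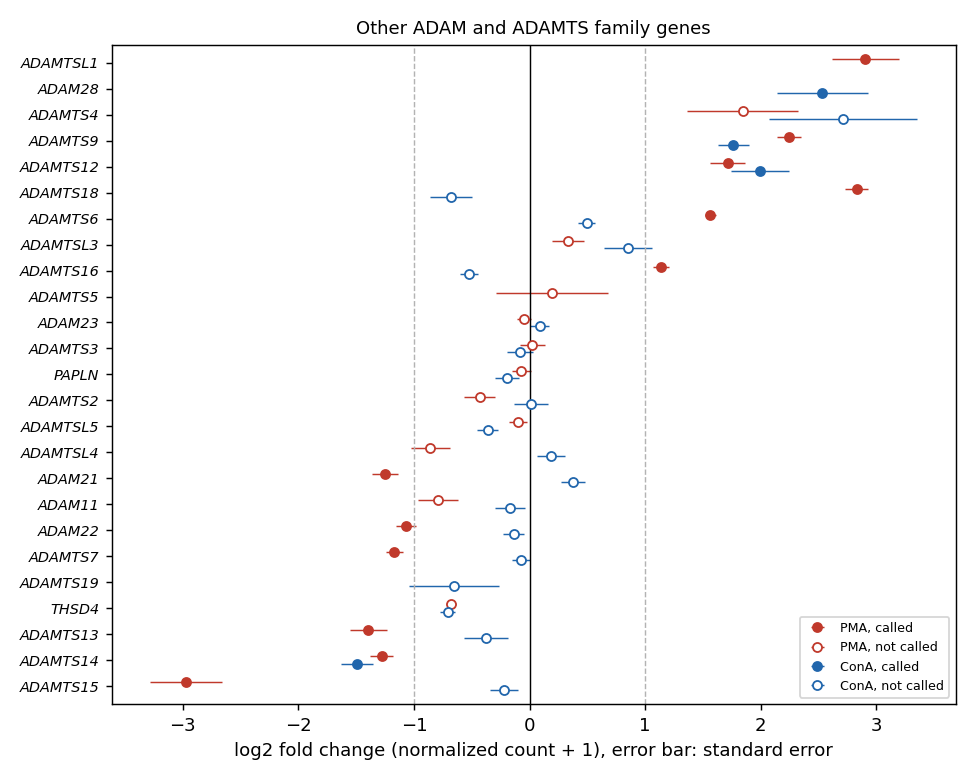
Log2 fold changes (horizontal axis) of the other ADAM and ADAMTS family genes tested, with PMA in red and ConA in blue, filled where called and open where not; error bars are standard errors from limma on 3 libraries per group. ADAMTS18 stands at 2.83 with PMA and -0.68 with ConA, and ADAMTS9 to the right of the 2-fold line with both.

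Maturation partners and inhibitors were led by the TIMPs. Of 18 genes tested with PMA 4 were called, 2 higher and 2 lower (22.2%, against 8.65% of all genes). Of 17 tested with ConA 1 was called, TIMP3 (5.88%, against 8.71% of all genes). The median log2 fold changes were -0.01 and -0.08. TIMP3, a matrix-bound inhibitor of ADAM17 and of several ADAMTS proteases, fell from 4075 ± 439 to 355 ± 19.6 normalized counts with PMA (-3.51, adjusted p = 1.36e-11) and from 7791 ± 332 to 2606 ± 237 with ConA (-1.58, adjusted p = 6.78e-11). TIMP1, an inhibitor of ADAM10, rose from 6714 ± 170 to 52012 ± 3176 with PMA (2.95, adjusted p = 1.83e-12). A2M, a broad protease trap, rose from 11.2 to 70.4 with PMA (2.57), and the convertase gene PCSK5 fell from 261 to 123 (-1.08). RHBDF2 (iRhom2), which carries ADAM17 to the cell surface, rose with both agents without being called, by 0.44 with PMA (adjusted p = 6.80e-05) and by 0.68 with ConA (adjusted p = 6.90e-08). TSPAN15, a partner of ADAM10, did not pass with PMA (-0.37, adjusted p = 0.108) or ConA (-0.08, adjusted p = 0.602). Without the variance trend the 4 calls with PMA came to 2.

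Of 37 genes of membrane-anchored substrates tested with ConA, 12 were called higher and 1 lower, against 5.83% and 2.88% of all genes. Of 35 tested with PMA, 6 were called higher and 4 lower, against 4.03% and 4.61% of all genes. Their median log2 fold change was 0.45 with ConA and -0.02 with PMA, and 0.00 over all genes tested with either agent. ICAM1, an adhesion molecule for leukocytes, rose from 642 to 12939 normalized counts with PMA (4.33, adjusted p = 1.60e-13) and from 435 to 17582 with ConA (5.33, adjusted p = 7.79e-17). The EGF family ligand genes split with PMA: NRG1 rose from 1362 to 5979 (2.13), AREG rose from 100.3 to 407 (2.01), and TGFA fell from 4734 to 1199 (-1.98). NRG1 was the 1 gene called lower with ConA, from 1585 to 729 (-1.12). With ConA, the TNF receptor gene TNFRSF1B rose from 39.5 to 878.5 (4.44). VCAM1 was at 0 in all ConA controls and at a mean of 29.6 with ConA, at least 9.71-fold higher when the controls are set to 3 estimated reads per library. In the PMA experiment VCAM1 had 32.4 and 36.8 (adjusted p = 0.463). VCAM1 and TNFRSF1B are also expressed by leukocytes or by endothelium, and the uneven leukocyte markers given above stand beside these values; their part was not tested.

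Of 10 matrix substrates of ADAMTS1 tested with PMA, 3 passed higher and 7 lower, against 32.8% and 30.5% of all genes. Of these 5 were called (1 higher and 4 lower), against 8.65% of all genes, and the median log2 fold change was -0.67. VCAN (versican), the large chondroitin sulphate proteoglycan, fell from 6539 to 778 normalized counts with PMA (-3.07, adjusted p = 2.57e-12). THBS1 (thrombospondin-1) fell from 8834 to 2595 (-1.76) and the basement membrane gene NID2 from 772 to 299 (-1.36), while TFPI2, a protease inhibitor of the matrix, rose from 25.9 to 329 (3.79). With ConA, 5 of 11 passed higher and 6 lower, against 32.8% and 32.5% of all genes. Of these 4 were called (3 higher and 1 lower), against 8.71% of all genes, and the median was -0.33. VCAN fell from 12265 to 3985 (-1.61, adjusted p = 1.82e-09), SEMA3C rose from 1500.1 to 4479 (1.58) and TFPI2 rose from 15.9 to 148 (3.13). DCN (decorin) averaged 25.3 with ConA, at least 8.31-fold above controls set to 3 estimated reads per library. ADAMTS1 itself was not listed in that experiment. Without the variance trend the calls came to 3 with PMA and 1 with ConA.

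**Figure D5:**
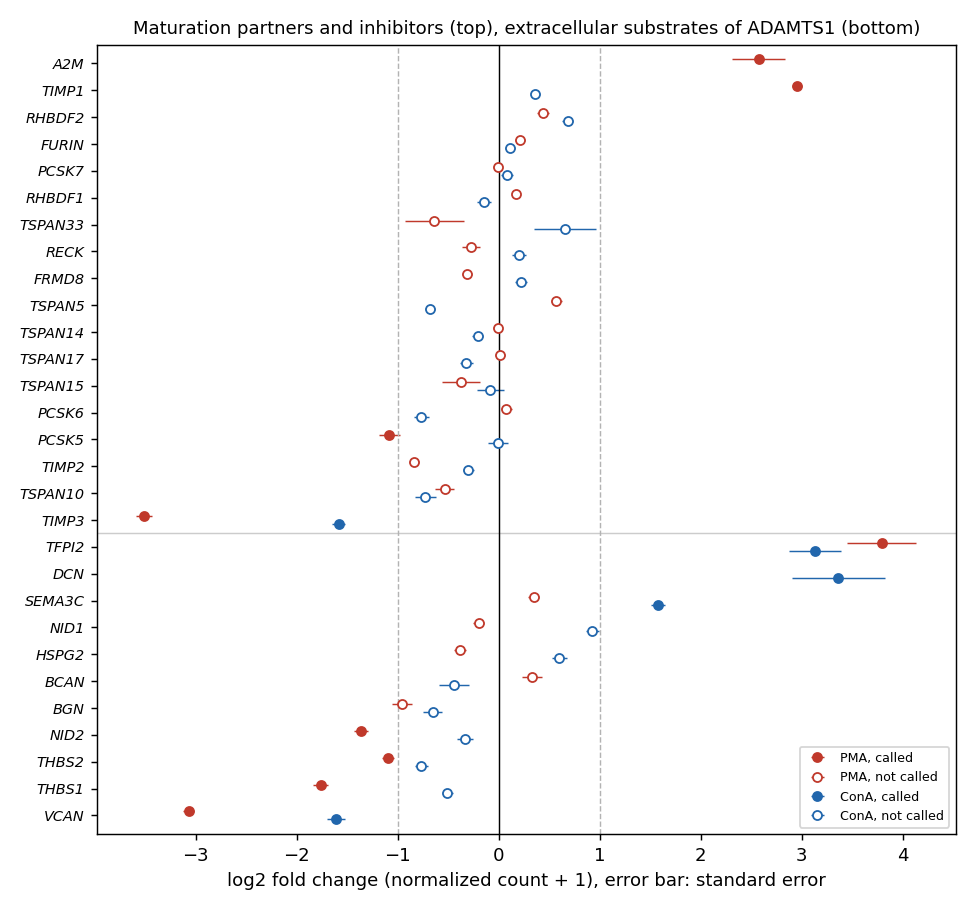
Log2 fold changes (horizontal axis) of maturation partners and inhibitors (above the grey line) and of extracellular substrates of ADAMTS1 (below it), PMA in red and ConA in blue, filled where called; error bars are standard errors from limma on 3 libraries per group. TIMP3 lies at -3.51 and -1.58 and VCAN at -3.07 and -1.61; the point of DCN depends on the pseudocount, since its controls were at or under 3 reads.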

How the data were processed

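Per the labels, polyA RNA of HT1080 cells was sequenced in 12 libraries (3 per group). The signal values that the authors deposited are normalized counts: estimated reads per gene symbol divided by a factor for each library, with each experiment scaled in a table of its own. The submitters' processing notes list Partek, STAR, Bowtie2, DESeq2 and the builds hg19 and mm10, with no roles. Depth was estimated from the steps between values of 5 and 60, of which 80.2% to 82.6% became whole (tolerance 0.02), so tests on counts were not run. Precision rests on the spread of 3 libraries; 3 against 3 cannot give an exact permutation p under 0.1.

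Groups of each table were tested by limma 3.58.1 (R 4.3.3, with a variance trend) on log2(normalized count + 1), for genes with a mean of at least 10 over the 6 libraries, which understates changes of low genes. P-values were Benjamini-Hochberg adjusted over all genes tested. "Passed" means an adjusted p of at most 0.05, and "called" an adjusted p of at most 0.0001 with a log2 fold change of 1 or more in size. Tested on simulated data for PMA, 86 of 100 genes changed by 0.5 and 100 of 100 changed by 1.5 passed, and for ConA 97 and 100. For the difference between the agents, 116 of 194 genes differing by 0.5 passed, and 196 of 196 differing by 1.5. The changed genes all had means of at least 50, and 1 fixed dispersion was used for all genes. These shares therefore do not cover ADAM12 with ConA or ADAMTS1, nor genes with a wider spread. Lengths and promoters came from GRCh38 tables, which is not the build named in the notes. Figures were drawn with matplotlib 3.10.9 and tables made with pandas 2.3.3 under Python 3.11.15.

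The genes and lists were chosen with earlier results of these data known. Named were the 8 genes; from each list, up to 4 genes per treatment with the largest change among those called; and TIMP3, RHBDF2, ADAM28, ADAMTS4, ADAMTS5, TSPAN15 and VCAN in any case. One gene that the rule named is not reported here. A further rule, on genes with a pattern like that of a called member, named none, as none of the 8 was called with either agent. The coding length was tried only after the data were seen. Leukocyte, erythroid, mesenchymal and epithelial markers were checked; of 6 epithelial markers 1 was listed for PMA and 5 for ConA, summing to 59.9 to 212 normalized counts per library.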

Additional observations from a re-analysis of the deposited data

Results flagged for a closer look

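Changes that differed between PMA and ConA by a test of the difference itself (limma over 12 libraries, PMA change minus ConA change on the log2 scale) are listed here. Among the 8 genes these were ADAM12 (1.79), ADAM15 (-0.82), ADAM10 (-0.36), ADAM17 (-0.34), ADAM9 (-0.18) and ADAM19 (0.17), each at an adjusted p of at most 0.05.

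Named genes of the lists that were tested in both tables are given where the difference was called. Toward PMA these were ADAMTS18 (3.51), NRG1 (3.25), TIMP1 (2.59) and AREG (1.21). Toward ConA they were VCAM1 (-4.58, a value that depends on the pseudocount because the ConA controls were at 0), TNFRSF1B (-3.47), ADAMTS15 (-2.75), TIMP3 (-1.93), TGFA (-1.68), VCAN (-1.46), THBS1 (-1.26), SEMA3C (-1.23), PCSK5 (-1.08) and NID2 (-1.03). TIMP3, VCAN, THBS1, NID2 and TGFA passed lower with both agents and fell further with PMA. ADAMTS15 and PCSK5 fell with PMA and did not pass with ConA. SEMA3C and TNFRSF1B passed higher with both agents and rose further with ConA. VCAM1 rose with ConA and did not pass with PMA. TIMP1 and AREG passed higher with both agents and rose further with PMA. NRG1 was called higher with PMA and lower with ConA (-1.12). ADAMTS18 was called higher with PMA and passed lower with ConA (-0.68). TSPAN5 passed higher with PMA and lower with ConA. Each agent was used in 1 experiment, so agent and experiment cannot be told apart.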

How the results depend on the processing

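Alternatives were pseudocounts of 0.1 and 10, a minimum mean of 50 or none, median centring, quantile normalization, no variance trend, 1 fit of all libraries, the replicate block and leaving out each library. Of the single-gene values 325 kept direction and side of the threshold, 20 no longer passed, 6 newly passed and 4 reversed. The changes of ADAM12 and ADAM15, and their differences between the agents, passed under all alternatives that gave a value. The reversals were ADAM9 with ConA under quantile normalization (0.018) and without ConA control 4 (-0.062 to 0.012 over left-out libraries), and, under quantile normalization, the differences of ADAM8 (0.080) and ADAM19 (-0.0064). The number that passed with ConA went from 5 to 3 under median centring, and the number whose difference was called ranged from 0 to 1 over left-out libraries. Without the variance trend, calls came to 5 with PMA and 0 with ConA in the family list, 2 with PMA among partners, and 3 with PMA and 1 with ConA among ADAMTS1 substrates. The family list with ConA had 2 calls at a mean of at least 50 and 2 to 4 over left-out libraries. The causes were not tested, except that the higher minimum left 18 of 23 family genes tested; it also left no value for ADAM12 with ConA or for ADAMTS1.

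PMA 1 to 3 and their controls share replicate numbers. After group means were subtracted, same-numbered libraries correlated at -0.064, 0.096 and 0.096, and differently numbered ones at -0.176 to 0.106. With 3 libraries per group these values cannot decide whether same-numbered libraries were paired. With the replicate block 5 members passed and 0 were called with PMA, and the lists had 12, 4, 10 and 5 calls, the counts without it. No paired analysis was possible for ConA because its libraries and controls share no numbers. ADAM19 with PMA passed under quantile normalization (-0.20, adjusted p = 0.00167), and its difference no longer passed in 8 of 20 alternatives and reversed in 1. The lowest levels, those of ADAM12 and ADAMTS1, limit the precision most.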
